A study of Rattus norvegicus with 8 samples.

Results

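Fibroblast growth factors (FGFs) and their receptors were examined in the dentate gyrus of ovariectomized rats after status epilepticus (SE), with and without estradiol replacement. The 9 genes were the FGF ligands Fgf1, Fgf2, Fgf9 and Fgf18, the FGF homologous factors Fgf12, Fgf13 and Fgf14, and the receptors Fgfr1 and Fgfr2, taken as every non-control spot of the array that carried one of these gene names. They were 9 of 35199 gene names on the array and were covered by 16 of 41012 probes and 25 of 43379 spots. All 8 rats were adult female Sprague-Dawley rats, ovariectomized and given kainic acid (16 mg/kg according to the labels), which set off SE that was ended with pentobarbital after 5 h. The 4 COS rats had received oil, and the 4 CES rats estradiol benzoate (EB), 4 doses of 2 µg spaced 24 h apart. The labels place one pair of doses before and one pair after SE, whereas the methods of the study place every injection before SE, with a lower kainic acid dose, diazepam to end the seizures and more than one collection time. The design compared how estradiol replacement changed the transcriptome of seizured rats, and rats without SE were not analysed here, so the values compare CES with COS and say nothing of the change that SE itself caused.

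FGFs act by binding tyrosine kinase receptors together with heparan sulphate chains on the cell surface, and the receptors pass the signal through docking and adaptor proteins to the Ras-ERK, phosphoinositide and phospholipase C pathways. Fgf1 and Fgf2 lack a classical secretion signal, Fgf9 and Fgf18 are secreted, and in the brain Fgf2 is made mainly by astrocytes and supports neural precursors, blood vessels and injured neurons. Fgf12, Fgf13 and Fgf14 are different in kind: these homologous factors stay inside the neuron, do not depend on the receptors and bind the C-terminal tails of voltage-gated sodium channels at the axon initial segment.

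The array was a 2-colour oligonucleotide array carrying 60-base probes, and each rat took 1 dye on 1 array. Each of the 4 arrays held 2 rats of the same group, so that array and group could not be separated, while Cy3 and Cy5 were balanced between the groups. A spot was counted as valid in a rat when its signal was at least 2 times the local background in that rat. Only spots valid in all 8 rats were used for the test. A level below means the log2 of the background-subtracted intensity over the median of the valid spots in that rat. The rats had between 30690 and 38553 valid spots, and 20787 genes were quantified in all 8. The median difference of all genes, CES minus COS, was -0.25 on this log2 scale. With scaling over the 26294 spots shared as valid by the 8 rats this median became 0.14, so the differences of the quantified genes among the 9 are also given relative to this median difference, and marker lists relative to the median gene of each rat. Beyond this shift, CES 2 was the estradiol rat nearest to the COS mean in 53.0% of the 7137 genes that passed the test. The tissue was bulk dentate gyrus, in which fewer cells of a type and less RNA per cell cannot be told apart.

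Probe sequences that carry the main results are printed 5′ to 3′ as the scanner files give them, with positions on rn4, the build of the array annotation. The first is the probe of Fgf2 that was spotted 10 times, at chr2:123946945-123947004 on the plus strand, 60 contiguous bases starting at base 824 of its target transcript. The Fgf12 probe at chr11:74261759-74287050, plus strand, spans 25292 bases of genome and therefore crosses an intron. Fgfr1 is shown by the probe on which its result rests, at chr16:70870147-70870312, minus strand, starting at base 2236 of the transcript.
Fgf2: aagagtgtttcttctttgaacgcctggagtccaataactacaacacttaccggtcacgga
Fgf12: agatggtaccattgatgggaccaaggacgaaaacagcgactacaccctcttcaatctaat
Fgfr1: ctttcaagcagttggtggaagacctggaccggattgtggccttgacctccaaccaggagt

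Of the 9 genes, 8 were quantified, and 2 of the 8, Fgf2 and Fgfr1, were lower in CES at an adjusted p under 0.05. Across the array 28.6% of genes passed the test as lower and 5.74% as higher, and 0 of the 8 passed as higher (limma, Benjamini-Hochberg over 20787 genes). At an unadjusted p under 0.05 the counts were 4 lower and 0 higher, beside 9400 of all 20787 genes in either direction. The methods' t-test also gave 4 lower and 0 higher at an unadjusted p under 0.05, beside 5900 of all genes. After Benjamini-Hochberg adjustment it gave 0 in either direction, among the 8 as among all genes. The count of 2 lower was 1 without COS 1, COS 2, COS 3 or CES 1 in turn, and 4 without CES 2 or CES 3. The lower count over all genes moved as well, from 5943 in the main fit. It was 3627 without COS 1, 3948 without COS 2, 1141 without COS 3 and 2547 without CES 1. Without CES 2 it was 6850, and without CES 3 it was 6940. Every CES rat lay below every COS rat in 3 of the 8, against 19.7% of all genes, and in none did every CES rat lie above every COS rat, against 1.55%. The median difference of the 8 genes was -0.46 on the log2 scale, or -0.21 after the median of all genes was taken off. By probe, 12 of the 16 were quantified, 3 passed as lower and 0 as higher, against 29.4% and 5.46% of the 24861 probes tested. The share of lower calls among the 8 was thus not above that of the whole array. The quantified ligands and receptors all had differences below 0, and the 3 homologous factors had differences above 0.

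**Figure D1:**
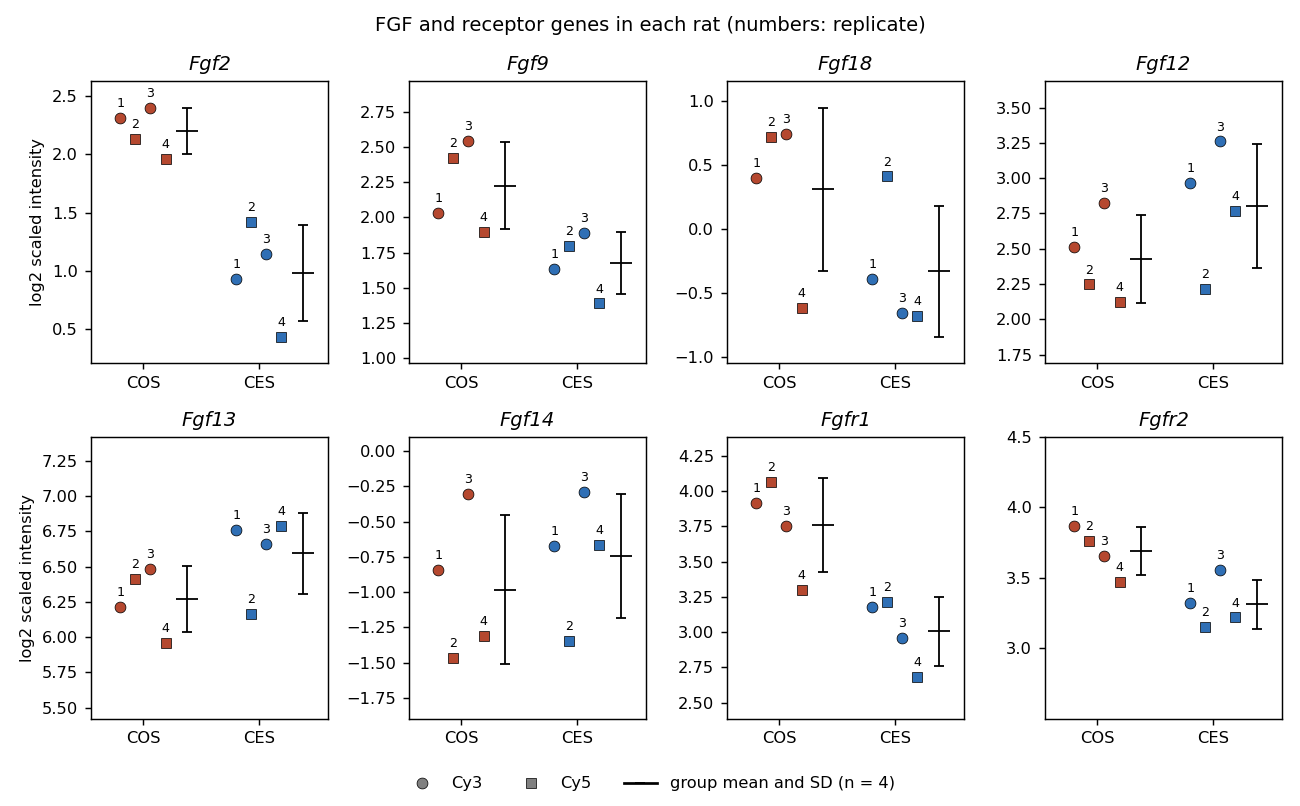
Levels of the 8 quantified genes in each rat, as log2 of the background-subtracted intensity over the median valid spot of the rat (y axis), for oil (COS, red) and estradiol (CES, blue). Circles are Cy3 and squares Cy5, numbers are replicates, and bars give the mean and SD of 4 rats. In Fgf2, Fgf9 and Fgfr1 all CES points lie below all COS points.

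Fgf2, a mitogen for neural precursors, glia and endothelium, showed the largest difference among the 8 genes. Its level was 2.31, 2.13, 2.40 and 1.96 in COS rats 1 to 4 and 0.93, 1.42, 1.14 and 0.44 in CES rats 1 to 4. The groups were apart, with CES 2 the highest and CES 4 the lowest of the estradiol rats. The level was 2.32-fold higher in COS than in CES, a log2 difference of -1.22 (SE 0.22, 95% confidence interval -1.70 to -0.73, adjusted p = 0.00469 in limma), or -0.96 relative to the median difference. The call held with each rat left out in turn, and it held in 23 of 26 alternative settings. Over all 26 the difference ran from -1.43 to -0.82. It was lost with the Cy5 rats alone (adjusted p = 0.334) and with normexp background correction (adjusted p = 0.153). In the methods' t-test it was lost after Benjamini-Hochberg adjustment (adjusted p = 0.0783, unadjusted p = 0.00505). The adjusted p ran from 0.000135 to 0.334 over the alternatives.

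The repeated spots gave a direct measure of technical spread for Fgf2. Of the 10 spots of the probe printed above, 1 was marked as an outlier and left out, and in 9 of the other 9 every CES rat lay below every COS rat. The difference in single spots ran from -1.41 to -0.95. Within a rat the SD over these spots was 0.13 to 0.21, whereas the SD between rats was 0.20 in COS and 0.42 in CES. Spots of 1 probe in 1 rat share the RNA and the hybridization, and they were averaged before the test.

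**Figure D2:**
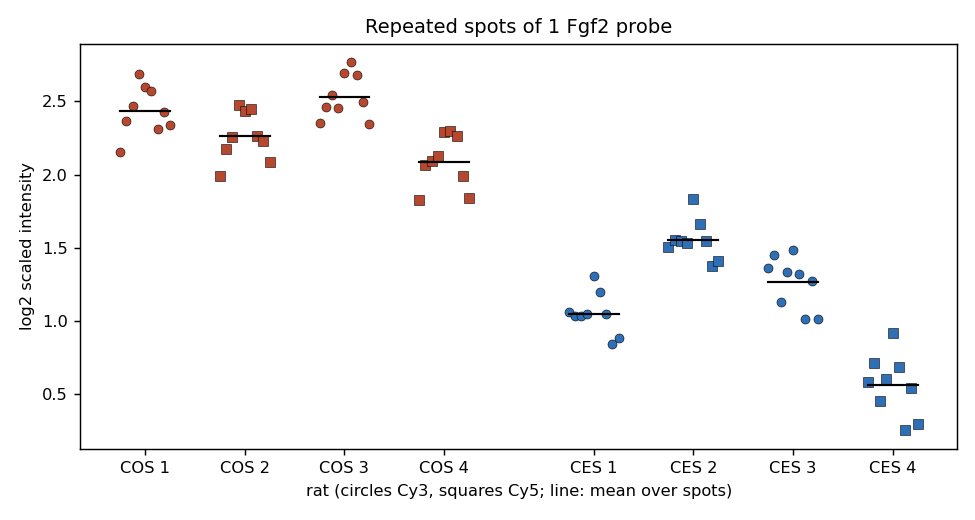
Log2 scaled intensity (y axis) of the 9 retained spots of the repeated Fgf2 probe in each of the 8 rats (x axis); each point is a spot and each line the mean of a rat. The mean of every CES rat lies below the mean of every COS rat, CES 4 lowest, while the highest spot of CES 2 (1.83) meets the lowest spot of COS 4 (1.83).

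A second, dim Fgf2 probe, at chr2:123947600-123947659 and starting at base 1184, rose well above background in 3 of the COS rats and 2 of the CES rats. Its level was -0.87, -1.35, -0.99 and -1.58 in COS and -1.67, -1.85, -1.70 and -2.93 in CES, again with no overlap. The difference was -0.84 (SE 0.23, adjusted p = 0.019 in limma over all probes), in the same direction as the repeated probe. The call of this probe was lost without COS 1 (adjusted p = 0.0562), COS 2 (0.0543), COS 3 (0.0804), COS 4 (0.0521) or CES 1 (0.0663). Under the scaling over shared spots its difference was -0.44 (adjusted p = 0.18), in a range of adjusted p over the alternatives of 0.00189 to 0.691.

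Fgf1, the acidic FGF that binds all the receptors, was near the limit of detection. Its single probe was well above background in 1 COS rat and in none of the CES rats, and it was not valid in 1 CES rat, so that it was left out of the test. The level was -1.89, -2.28, -0.66 and -2.84 in COS and -2.66, -3.50, -2.25 and -3.76 in CES, with overlap. It was too dim for a difference to be given.

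Fgf9, a secreted ligand of neurons and glia, had levels of 2.03, 2.42, 2.54 and 1.90 in COS and of 1.64, 1.80, 1.89 and 1.39 in CES. The groups did not overlap, although COS 4 and CES 3 almost met. The difference of -0.54 (SE 0.20, adjusted p = 0.0567 in limma) did not pass the test, and it was -0.29 relative to the median difference. It passed in 7 of 26 alternatives, among them those without CES 2 (-0.62, adjusted p = 0.0345), without CES 3 (-0.57, adjusted p = 0.032) and without CES 4 (-0.48, adjusted p = 0.0477), and the adjusted p ran from 0.0156 to 0.765 over all of them. After loess, quantile normalization, the scaling over shared spots and in the deposited table the difference was -0.15 to -0.17 (adjusted p from 0.445 to 0.516).

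Fgf18, a secreted ligand related to Fgf8 and Fgf17, was at 0.40, 0.72, 0.75 and -0.61 in COS. In CES it was at -0.39, 0.41, -0.66 and -0.68. COS 4 lay among the low CES rats and CES 2 among the COS rats, so the groups overlapped. The difference was -0.64 with the widest error of the 8 genes (SE 0.34, adjusted p = 0.174 in limma), or -0.39 relative to the median difference. It moved both ways with single rats, to -1.01 without COS 4 (adjusted p = 0.0354) and -0.95 without CES 2 (adjusted p = 0.0223), and to -0.42 without COS 3, -0.43 without CES 3 and -0.44 without CES 4. Under the scaling over shared spots it was -0.24 (adjusted p = 0.625) and with the Cy5 rats alone -0.19 (adjusted p = 0.887), within a range of adjusted p over the alternatives of 0.0116 to 0.887.

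The homologous factors had the opposite sign. Fgf12, whose product binds cardiac and neuronal sodium channels, was at 2.52, 2.25, 2.82 and 2.13 in COS and at 2.96, 2.21, 3.26 and 2.77 in CES. CES 2 lay among the COS rats, and CES 1 and CES 3 lay above all of them. The difference was 0.37 (SE 0.18, 95% confidence interval -0.03 to 0.78, adjusted p = 0.139 in limma), or 0.63 relative to the median difference.

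Fgf13, which also binds microtubules, was at 6.21, 6.41, 6.48 and 5.96 in COS. In CES it was at 6.76, 6.17, 6.66 and 6.79, so that 3 of 4 CES rats lay above every COS rat and CES 2 fell within the COS range. The difference was 0.33 (SE 0.19, 95% confidence interval -0.10 to 0.76, adjusted p = 0.214 in limma), or 0.58 relative to the median difference. Fgf14, mutated in a hereditary ataxia in people and covered by dim probes, was at -0.84, -1.47, -0.30 and -1.31 in COS and -0.67, -1.35, -0.29 and -0.66 in CES. These groups overlapped, with a difference of 0.24 (SE 0.21, adjusted p = 0.415 in limma) or 0.49 relative to the median difference. It was 0.04 without CES 4 and 0.11 without CES 3. The 2 Fgf14 probes gave 0.28 (SE 0.20) and 0.20 (SE 0.24), and neither passed the test.

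How the homologous factors were called depended on the scaling. Fgf12 was higher in CES when signals were scaled over the shared spots (0.77, adjusted p = 0.0319), after loess (0.74, adjusted p = 0.0275) and quantile normalization (0.73, adjusted p = 0.0287) and in the deposited log2 table (0.71, adjusted p = 0.0388), and also without CES 2 (0.50, adjusted p = 0.0433). Its adjusted p ran from 0.0275 to 0.663 over 26 alternatives. Fgf13 passed only after loess (0.68, adjusted p = 0.0477, in a range of 0.0477 to 0.705), and Fgf14 passed in 0 of 25. Under the scaling over shared spots 1 of the 8 genes passed as higher, against 16.3% of all genes, and 1 as lower, namely Fgf2, against 8.55%.

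When each level was taken relative to the median gene of the same rat, Fgf12 was 1.45, 1.46, 1.62 and 1.64 in COS and 2.39, 1.79, 2.47 and 2.52 in CES. Fgf13 was 5.15, 5.63, 5.28 and 5.48 in COS and 6.18, 5.75, 5.87 and 6.54 in CES. On this scale the groups did not overlap for either gene, CES above COS, and Fgf2 was the only one of the 8 with CES below COS. The background was 17.5% of all genes with every CES rat above every COS rat and 11.7% with every CES rat below, and the median difference of all genes was 0.12. The relative difference was 0.75 for Fgf12, 0.70 for Fgf13 and 0.61 for Fgf14, and it was -0.84 for Fgf2, -0.38 for Fgfr1 and -0.01 for Fgfr2.

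**Figure D3:**
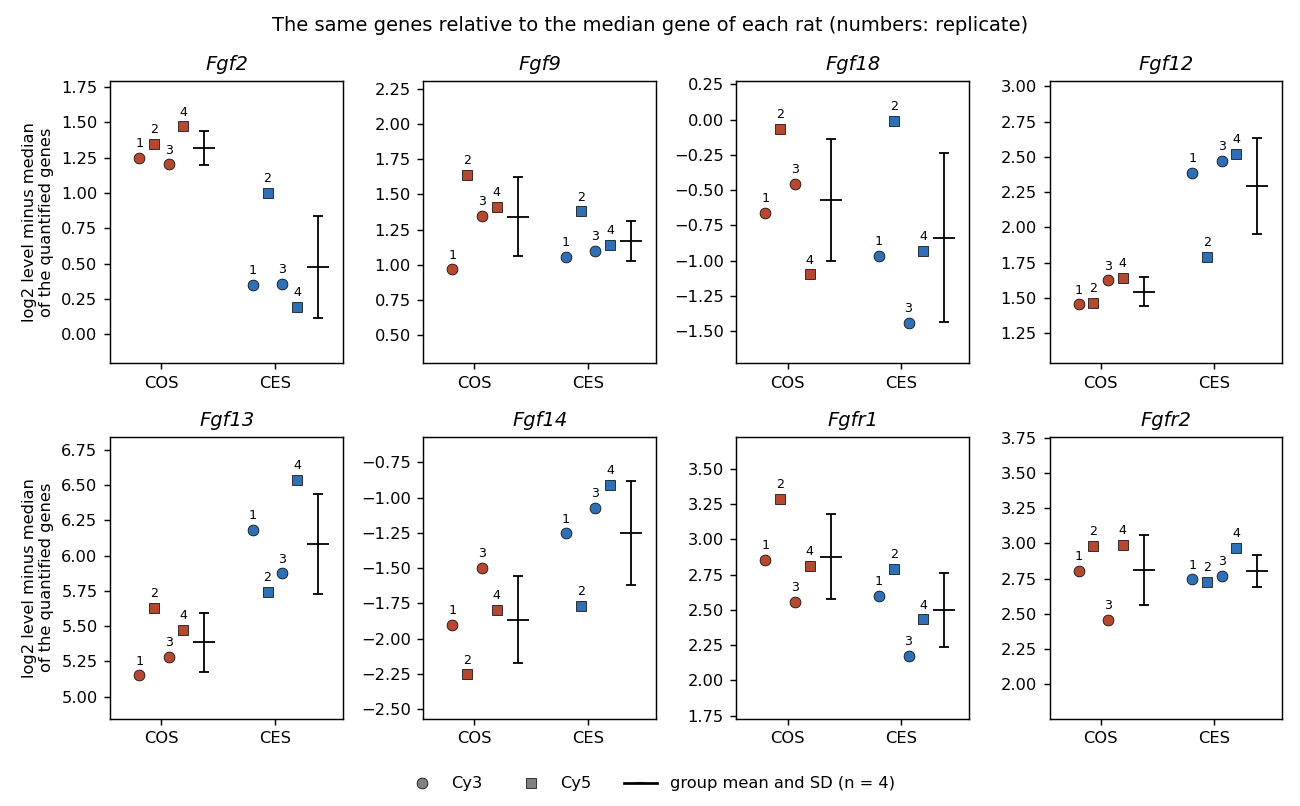
The 8 genes after the median log2 level of the 20787 quantified genes was subtracted in each rat (y axis), COS in red and CES in blue, circles Cy3 and squares Cy5, with the mean and SD of 4 rats. Fgf2 stays lower in CES, Fgf12 and Fgf13 stand higher in CES without overlap, and Fgfr1 and Fgfr2 overlap.

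Fgfr1, the main FGF receptor of hippocampal neurons and precursors, was at 3.92, 4.07, 3.76 and 3.30 in COS and at 3.18, 3.21, 2.96 and 2.68 in CES. The groups were apart, although COS 4 lay close to CES 1 and CES 2. The level was 1.68-fold higher in COS, a difference of -0.75 (SE 0.21, 95% confidence interval -1.22 to -0.28, adjusted p = 0.0219 in limma), or -0.50 relative to the median difference. The call held in 12 of 26 alternatives, and it was lost without COS 1 (-0.72, adjusted p = 0.07), COS 2 (-0.60, adjusted p = 0.0649), COS 3 (-0.75, adjusted p = 0.0933) or CES 1 (-0.78, adjusted p = 0.0631). It was also lost under the scaling over shared spots (-0.35, adjusted p = 0.173), within a range of adjusted p over the alternatives of 0.0072 to 0.465. Loess (-0.41, adjusted p = 0.146), quantile normalization (-0.42, adjusted p = 0.134) and the deposited table (-0.38, adjusted p = 0.117) lost the call too. So did each dye alone, normexp, the methods' t-test after adjustment, no filter and signals of at least 3 times background.

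Only 1 of the 3 Fgfr1 probes was quantified, the one starting at base 2236. The other 2 probes were not well above background in any of the 8 rats. No difference could be given for either, and the Fgfr1 result rests on 1 probe.

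Fgfr2, which is strong in glia, was at 3.87, 3.76, 3.66 and 3.47 in COS and at 3.32, 3.15, 3.55 and 3.22 in CES. CES 3 lay above COS 4, and the groups otherwise stood apart. The difference of -0.38 (SE 0.16, adjusted p = 0.0905 in limma) did not pass the test, and it was -0.13 relative to the median difference. It passed in 2 of 26 alternatives, without CES 3 (-0.44, adjusted p = 0.047) and with spots well above background in all rats (-0.39, adjusted p = 0.0481). The difference reached 0.02 under the scaling over shared spots (adjusted p = 0.939), in a range of adjusted p over the alternatives of 0.047 to 0.987.

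Of the 4 Fgfr2 probes, a bright one starting at base 4471 set the level of the gene. Its own difference was -0.39 (SE 0.16, adjusted p = 0.0868 in limma), while a dim probe starting at base 2320 gave -0.07 (SE 0.20, adjusted p = 0.812). Another, starting at base 1709, was well above background in 1 CES rat and in no COS rat, too dim for a difference to be given. The probe starting at base 1585 was not well above background in any rat.

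**Figure D4:**
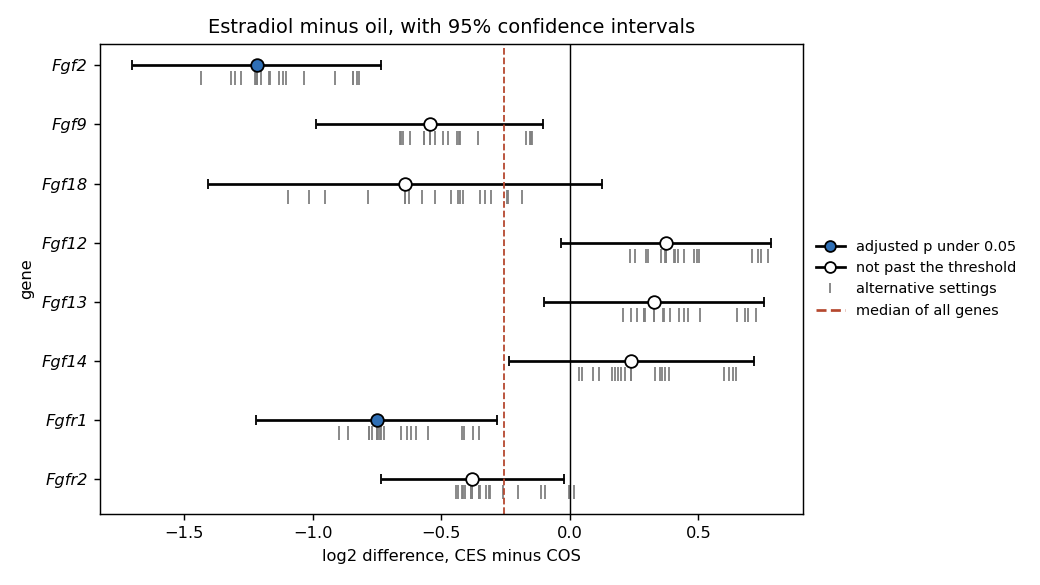
Log2 difference CES minus COS (x axis) of the 8 genes (y axis) with 95% confidence intervals; filled points passed an adjusted p of 0.05, grey ticks are the alternative settings and the dashed line is the median of all genes at -0.25. Fgf2 and Fgfr1 are filled, and the ticks of Fgf2 lie between -1.43 and -0.82.

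Further FGF family genes were mostly not measurable. Of 18 others on the array, 4 were quantified, 0 passed as higher (0 also at an unadjusted p under 0.05) and 2 as lower, and the median difference was -0.11. The shares of all genes that passed were 5.74% as higher and 28.6% as lower. Fgfr3, an astrocyte receptor, was at 1.05, 0.05, 0.51 and 0.23 in COS and -0.02, 0.02, 0.01 and -0.44 in CES, with no overlap and a difference of -0.57 (SE 0.20, adjusted p = 0.0475 in limma), and it passed in 9 of 26 alternatives. Fgfrl1, the receptor-like member without a kinase domain, was at 5.21, 4.86, 5.20 and 4.80 in COS and 3.69, 4.77, 4.42 and 3.69 in CES, with CES 2 just under the lowest COS rat. Its difference was -0.88 (SE 0.26, adjusted p = 0.0284), and it passed in 12 of 26. Fgf17 was well above background in 1 COS rat and 2 CES rats, and Fgf22 in 2 CES rats and no COS rat. Both were too dim for their differences to be given. They passed the filter of 2 times background and were counted among the 4, so the median of -0.11 rests partly on these dim genes.

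The genes that carry FGF signals were taken as lists. Over all 6 lists 72 of 92 genes on the array were quantified, 9 passed as higher and 23 as lower, beside 5.74% and 28.6% of all genes, and their median of -0.28 differed by -0.03 from the median of all genes. These counts moved with single rats, and so did those of all 20787 genes. Without COS 3 the lists gave 1 and 4 (all genes 285 and 1141). Without COS 1 they gave 5 and 14 (all genes 497 and 3627), and without CES 1 they gave 4 and 9 (all genes 535 and 2547). Without COS 2 the lower count was 13 (all genes 3948), and without COS 4 the higher count was 5 (all genes 521). Under the scaling over shared spots 12 genes of the lists were called higher and 6 lower, beside 16.3% and 8.55% of all genes.

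Co-receptors and heparan sulphate enzymes, which present FGFs to their receptors, had 27 genes quantified, with 1 higher, 9 lower and a median of -0.30. Sdc1, a syndecan that carries heparan sulphate, was at 5.41, 4.60, 5.48 and 4.35 in COS and at -0.21, 3.83, -0.77 and -1.29 in CES. CES 2 stood near the COS rats and the other CES rats were far below, and the mean difference was -4.57 (SE 0.93, adjusted p = 0.00652 in limma). Sdc4, another syndecan, differed by -1.43 (SE 0.24, adjusted p = 0.00391), and its COS range of 5.38 to 6.04 lay above its CES range of 3.83 to 4.64. Hs2st1, which adds 2-O-sulphate to the chains, differed by -0.72 (SE 0.21, adjusted p = 0.0264).

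Adaptors had 18 genes quantified, with 1 higher, 5 lower and a median of -0.28. Shc1, which links receptors to Grb2, was at 2.85, 2.77, 2.96 and 2.45 in COS and at 0.65, 1.92, 0.96 and 0.52 in CES, a difference of -1.75 (SE 0.29, adjusted p = 0.00405 in limma). Shc1 was also the gene of the lists whose levels followed Fgf2 most closely, with a Pearson r of 0.98 over 8 rats among 79 genes compared. The 2 groups and the arrays are shared by all such values, so the correlation is given as a description, with no p. Shc3, the neuronal relative, differed by -1.21 (SE 0.31, adjusted p = 0.0149) and Nck1 by -0.83 (SE 0.19, adjusted p = 0.00996). Grb14, an adaptor that restrains receptor signalling, was the gene with the opposite direction, at 1.03, 0.79, 1.29 and 0.92 in COS and 1.58, 1.51, 2.24 and 1.95 in CES (difference 0.81, SE 0.20, adjusted p = 0.0124).

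Feedback inhibitors, which FGF signalling itself induces and which then dampen it, had 9 genes quantified, with 0 higher (0 also at an unadjusted p under 0.05), 6 lower and a median of -0.68, or -0.43 relative to all genes. Spry1, a Sprouty protein, was at 2.93, 3.05, 3.31 and 2.91 in COS and 0.84, 1.85, 0.35 and -0.05 in CES. The level of Spry1 was 4.93-fold higher in COS (difference -2.30, SE 0.35, adjusted p = 0.00351 in limma), and it passed in 24 of 26 alternatives. Spry2 differed by -1.12 (SE 0.24, adjusted p = 0.00789) and Spry4 was 2.01-fold higher in COS (SE 0.18 on the log2 scale, adjusted p = 0.00496), each with groups apart. Spry2 was the gene of the lists nearest to Fgfr1, with a Pearson r of 0.97 over the 8 rats. Dusp6, the ERK phosphatase often read as a measure of FGF activity, did not pass, with a difference of -0.28 (SE 0.24, adjusted p = 0.385).

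The ETS factors, transcriptional targets of FGF signalling, had 3 genes quantified, and 1 passed as higher and 0 as lower (2 at an unadjusted p under 0.05), with a median of -0.35. Etv1 was the gene that passed, named here after its values were seen, at 2.86, 2.71, 2.82 and 2.21 in COS and 3.65, 2.83, 4.26 and 3.63 in CES. CES 2 lay within the COS range, and the difference was 0.94 (SE 0.23, adjusted p = 0.014 in limma). Etv4 (-0.45, SE 0.20) and Etv5 (-0.35, SE 0.15) did not pass. In 1 of them every CES rat lay below every COS rat, against 19.7% of all genes.

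Sodium channel partners, the proteins that the homologous factors bind or sit beside, had 11 genes quantified, with 6 higher, 1 lower and a median of 0.56, or 0.81 relative to all genes. Scn3b, an auxiliary beta subunit, was at 6.50, 6.66, 6.99 and 6.54 in COS and 7.96, 7.07, 7.86 and 8.13 in CES. The groups were apart, CES 2 being the lowest of the estradiol rats, with a difference of 1.08 (SE 0.24, adjusted p = 0.00839 in limma). The other 5 that passed as higher had groups that overlapped, and they included the pore-forming subunit gene Scn2a1 (0.96, SE 0.19, adjusted p = 0.00602), named here after its values were seen.

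**Figure D5:**
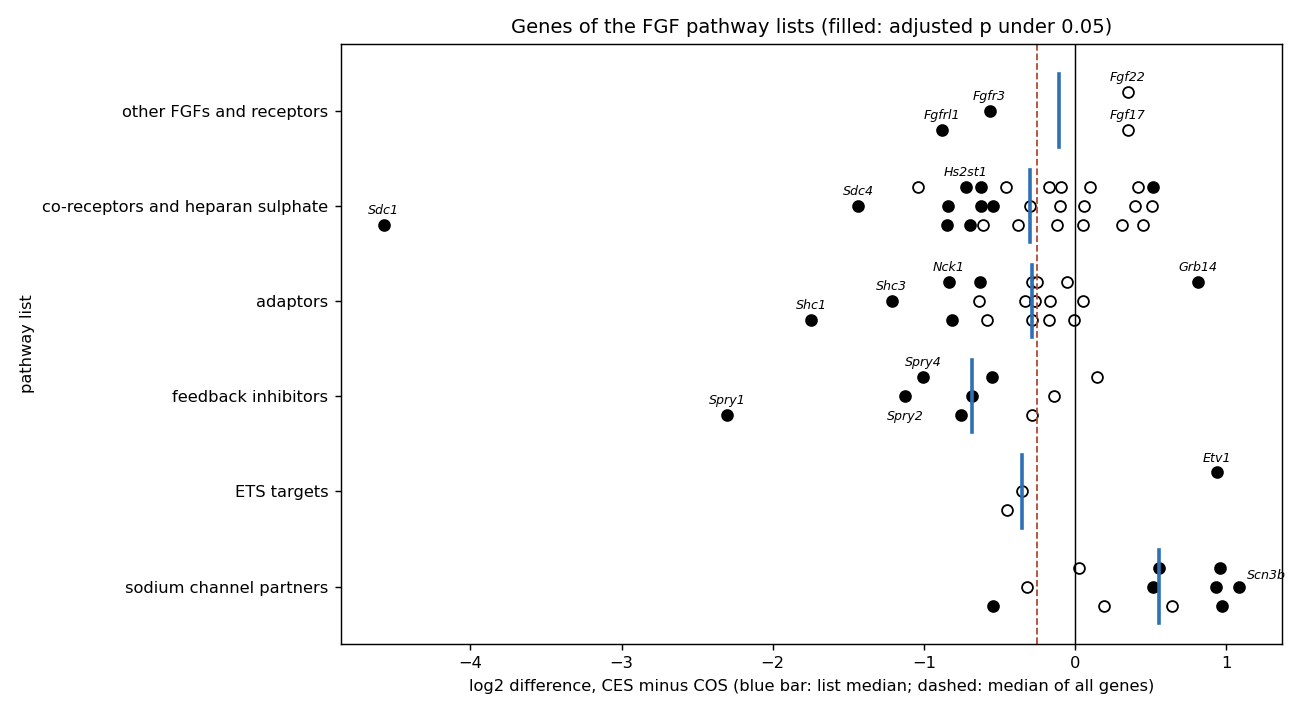
Log2 difference CES minus COS (x axis) of each quantified gene in the 6 pathway lists (y axis); filled points passed an adjusted p of 0.05, blue bars are list medians and the dashed line is the median of all genes. The feedback inhibitors center on -0.68 and the sodium channel partners on 0.56.

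Markers of the cell types in the tissue were read beside these values, as mean log2 levels over each list in each rat. Granule neuron markers, 4 of 5 quantified, ran from 0.35 to 1.23 in COS and from -0.36 to 0.29 in CES (difference -0.83, or -0.46 relative to the median gene of each rat, exact permutation p = 0.0286, two-sided, the smallest p that 4 against 4 rats can give). Among them Calb1 and C1ql2 were well above background in all rats, while Prox1, which defines granule neurons, was not in any of the 8, so the identity of the tissue rested on the other markers. General neuron markers, 4 of 5 quantified, differed by 0.06, or 0.44 relative to the median gene (exact permutation p = 0.657 for the first), from 4.35 to 4.90 in COS and from 4.49 to 4.94 in CES.

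Astrocyte markers, 7 of 7 quantified, ran from 2.89 to 3.55 in COS and from 2.77 to 3.48 in CES (difference -0.09, or 0.28 relative to the median gene, exact permutation p = 0.771 for the first). The list held genes of both directions, with a median difference of 0.04. Named here after their values were seen, Aldh1l1 (1.23) and Gja1 (1.42) passed as higher and S100b (-2.25) as lower, while Gfap, the astrocyte filament, was at -1.22 and did not pass (adjusted p = 0.0532 in limma). Microglia markers (5 of 5) ran from 2.04 to 2.60 in COS and from 1.55 to 2.05 in CES (difference -0.53, or -0.16 relative to the median gene, exact permutation p = 0.0571 for the first), and endothelial markers (3 of 4) from 0.46 to 1.18 and from -0.38 to 0.49 (difference -0.70, or -0.32 relative, exact permutation p = 0.0571 for the first), with Pecam1 not well above background in any rat.

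Oligodendrocyte markers (5 of 5) ran from 4.44 to 5.41 in COS and from 4.53 to 5.56 in CES, a difference of 0.24, or 0.61 relative to the median gene (exact permutation p = 0.457 for the first). Oligodendrocyte precursor markers (2 of 2) ran from 3.16 to 3.88 and from 2.70 to 3.57, a difference of -0.38, or -0.01 relative (exact permutation p = 0.143 for the first). Choroid plexus markers (4 of 5) differed by -0.11, or 0.27 relative (exact permutation p = 0.971 for the first), with COS 2 highest at 3.90. The part that cell composition has in the differences of Fgf2, Fgfr1 and the lists was not tested.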

How the data were processed

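Dentate gyrus RNA of 4 COS and 4 CES rats had been labelled with Cy3 or Cy5 and hybridized to 2-colour Agilent arrays, which were read by the authors with Agilent Feature Extraction 10.7.3.1, as the submitters' processing notes state. The scanner files deposited by the authors hold, for both channels, an intensity per spot together with the intensity around it. The log2 table deposited by the authors holds the log2 of the background-subtracted median signal less 1 constant per rat, and it was used as an alternative. Validity, scaling and averaging below follow the methods of the study, whose iterative renormalization across labels and conditions was not repeated.

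From the scanner files, the local background median was subtracted from the spot signal, control spots and 1593 spots marked as outliers in any rat were left out, and spots with a signal of at least 2 times background in all 8 rats were kept. Signals were scaled to the median valid spot of the rat, averaged over the spots of a gene name and taken to log2. The difference CES minus COS was fitted with limma 3.58.1 (R 4.3.3), taking dye as a fixed term and array as a random block (correlation -0.01). Tests were two-sided at 0.05, and p-values were adjusted after Benjamini and Hochberg across the 20787 genes, or across 24861 probes. The fit was tested on simulated data of the same size, without an array effect and with 200 of 20787 genes changed. At an adjusted p under 0.05 in limma it recovered 44% of changes of 1 on the log2 scale and 97% of changes of 2. Of its 151 calls 10 were false. In the measured data 7137 genes passed, so the recovery and the share of false calls need not be the same there. The median SE of a gene was 0.20, and the number of arrays limits the precision. P-values measure the spread between these rats, and arrays lie within groups. Marker lists were compared by an exact permutation test over the rats.

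The 9 genes and all lists were chosen with earlier results of these data known, and no enrichment test was run. Some items, a gene of the lists among them, are not reported here. Named were all 9 genes, any quantified gene of the FGF family, and in each list up to 3 genes called higher and up to 3 called lower whose groups did not overlap, by size of the difference, with the gene most correlated with each called member. Dusp6, Etv1, Etv4, Etv5, Scn2a1 and the astrocyte genes were named outside this rule, after their values were seen. Gene names are those of the array design, and 17512 probes could also be named through RefSeq accessions. Alternatives were the signal column, background correction, scaling, filters, single dyes, the block, the methods' t-test and each rat left out. The methods' t-test was adjusted here over all genes after Benjamini and Hochberg. The methods of the study corrected only for redundant spots of a gene and also required a fold-change cut-off per gene, and neither step was repeated. Keeping outlier spots was added after the data were seen.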

Additional observations from a re-analysis of the deposited data

How the results depend on the processing

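Over the alternatives the 8 genes kept their direction and side of the threshold in 171 of the refitted differences, newly passed in 18, lost the call in 17 and reversed in 1, Fgfr2, at 0.02 under the scaling over shared spots; the cause was not tested. Against 0 higher and 2 lower among the 8 genes, loess normalization gave 2 and 1, and quantile normalization, the scaling over shared spots and the deposited log2 table gave 1 and 1 each. The lower count was 0 with the Cy5 rats only, with normexp and in the methods' t-test, 1 with signals of at least 3 times background, and 4 with spots well above background in all rats. Over all genes, 2805 of 16224 were lower with 3 times background and 5228 of 13148 with spots well above background. The main fit had 5943 of 20787 lower. Fgf14 was not quantified with spots well above background in all rats. Among the 8 genes, leaving out each rat in turn gave 0 to 1 higher and 1 to 4 lower.

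In the pathway lists, against 9 higher and 23 lower, the Cy3 rats gave 5 and 15, the Cy5 rats 0 and 0, the methods' t-test 0 and 0, normexp 0 and 4, and no filter 5 and 14. The lower count was 6 with loess, 8 with quantile normalization, 6 with scaling over shared spots, 12 with 3 times background and 7 in the deposited table. Leaving out each rat gave 1 to 13 higher and 4 to 26 lower.

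Over all genes, against 1194 higher and 5943 lower, the Cy3 rats gave 776 higher, the Cy5 rats 0 and 2, the methods' t-test 0 and 0 (5900 at an unadjusted p under 0.05), normexp 132 and 477, no filter 633 higher and 3 times background 2805 lower. Loess gave 3181 and 1819, quantile 3009 and 2234, scaling over shared spots 3380 and 1778, and the deposited values 3210 and 1923, so that the share of higher among all calls moved from 16.7% to between 57.4% and 65.5%. Leaving out each rat gave 285 to 1805 higher and 1141 to 6940 lower. With a replicate block the counts were 1048 higher and 6041 lower, 0 and 3 among the 8 genes, and Fgf9 passed (adjusted p = 0.0296). Same-numbered rats share a dye, and with the dye removed their deviations correlated at -0.17, -0.28, -0.20 and 0.09. Differently numbered rats of the same dye gave -0.02 (COS 1, CES 3), 0.06 (COS 2, CES 4), -0.14 (COS 3, CES 1) and -0.18 (COS 4, CES 2). Taking off group and dye in 8 rats itself lowers all of these values, so they cannot decide whether the numbers pair the rats. Signal over background limits Fgf1, the second Fgf2 probe, Fgf14, both dim Fgfr1 probes and 3 of the Fgfr2 probes.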
